A study of Mus musculus with 8 samples.

Results

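The genes described here are 10 genes of the Notch pathway in the mandibular arch of mouse embryos: the ligand genes Jag1, Jag2 and Dll1, the receptor genes Notch1, Notch2 and Notch3, and the repressor genes Hes1, Hey1, Hey2 and Heyl. They were taken by symbol, as all probe sets annotated to exactly 1 of these names, which gave 18 probe sets among those of 18194 genes. The brightest probe set, by its mean of the 8 arrays, stands for the gene, and the others are shown beside it. RNA was measured on Affymetrix arrays, with 4 arrays from Wnt1-Cre;Alk5 fl/fl mutant arches and 4 from Alk5 fl/fl control arches, all of strain C57BL/6J at embryonic day 11.5, with sex not determined. Alk5 is Tgfbr1, the type I receptor of TGF-beta. The Wnt1-Cre driver is active in the neural crest lineage, which forms most of the arch mesenchyme, so that mesoderm, endothelium and epithelium of the same arch keep the receptor. Both groups carry the floxed alleles, and the control labels name no Cre, so effects of the driver and of the deletion cannot be told apart. The series was designed to ask how loss of TGF-beta signalling in neural crest cells affects their interaction with the muscle precursors of the arch.

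In the Notch pathway a ligand of the Jagged or Delta type on a cell binds a Notch receptor on its neighbour. Proteases then release the receptor's intracellular domain, which enters the nucleus, joins the DNA-binding protein RBPJ and switches on target genes. Among the best known targets are the Hes and Hey genes, which encode basic helix-loop-helix repressors. Jagged ligands and Notch receptors take part in the patterning of the pharyngeal arches and in the growth of their blood vessels, and Hey1 and Hey2 act together in heart and artery development. Hey1 is also known to respond to BMP and TGF-beta ligands in some cells.

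The arrays had median log2 values of 6.28 to 6.42. Mutant replicate 3 stood apart, with correlations of 0.986 to 0.991 with the other arrays, which correlated among themselves at 0.993 to 0.997. The labels do not say whether each array came from a separate embryo or from pooled arches, so the p-values below cover the spread among these arrays alone, and that spread may be technical in part. Tgfbr1, the targeted gene, has 3 probe sets, and all of them averaged higher in mutants. The brightest averaged 12.98 ± 0.0115 in mutants and 12.79 ± 0.0844 in controls (log2 value, SD, n = 4 each), with all 4 mutants above all 4 controls. Its change was 0.19, and the other probe sets changed by 0.51 and 0.30, with limma adjusted p of 0.317, 0.299 and 0.594 over all probe sets. Whether they lie outside the floxed part is not known here, so they do not check the deletion. All 14 mesenchyme markers of the mandibular arch were measured, with gene means between 6.06 and 13.10 (log2). The 4 markers of the arches behind had gene means between 4.35 and 7.43, where the lower quartile of all values was 4.83 and the median 6.32. All 4 averaged higher in mutants, where 8734 of 18194 genes had a change above 0. Hoxb2 among them passed (0.83, limma adjusted p = 0.0104).

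Of the 10 genes, Hey2 fell and the other 9 did not pass the test, at an adjusted p under 0.05 in limma's moderated model over all genes. Hey2, which encodes a repressor of the Hey family, was 4.83-fold lower in mutant arches. Hey1, a close relative of Hey2, was 1.64-fold lower without passing (adjusted p = 0.114). The remaining 8 genes, which include all ligands and receptors, had log2 changes between -0.19 and 0.22. Over all genes 2.14% passed in either direction and 1.31% as lower in the mutants, beside which the 10 genes held 1 call. The median log2 change of the 10 genes was -0.07, against -0.01 over all 18194. In RNA of a whole arch, fewer cells of a type and less RNA per cell cannot be told apart.

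**Figure D1:**
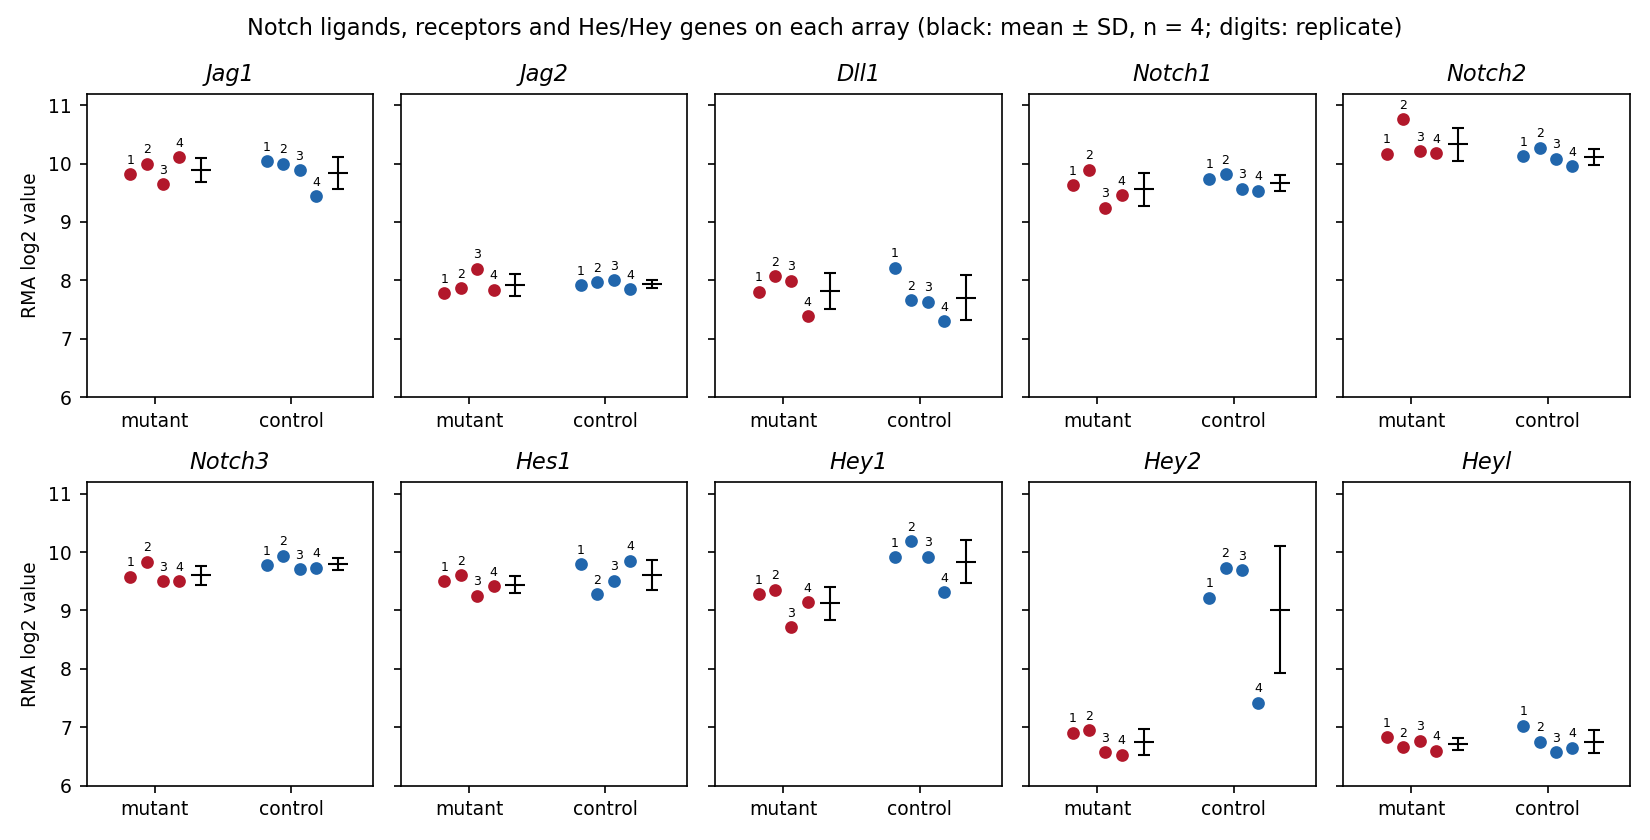
RMA log2 value (vertical axis) of each of the 10 genes on each array, with mutant arrays in red on the left and control arrays in blue on the right; digits give the replicate and black bars the mean ± SD (n = 4). Hey2 lies between 6.53 and 6.95 in the mutants and between 7.42 and 9.73 in the controls, with control replicate 4 the lowest control for both Hey2 and Hey1.

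Jag1 encodes the Jagged ligand best known from craniofacial development. It read 9.82, 9.997, 9.64 and 10.11 in mutant replicates 1 to 4, against 10.04, 9.998, 9.88 and 9.44 in control replicates 1 to 4 (log2 values, in this order throughout). The groups overlapped, with control replicate 4 below all other arrays. The log2 change was 0.05 ± 0.148 (SE), and its 95% interval ran from -0.28 to 0.38 (limma adjusted p = 0.913). Its further probe sets differed by -0.04 and 0.16.

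Jag2, the second Jagged ligand gene, read 7.78, 7.87, 8.20 and 7.84 in mutants, against 7.92, 7.96, 8.01 and 7.85 in controls. The control values lay within the range of the mutants. Its change was -0.02 ± 0.0981 and its 95% interval ran from -0.24 to 0.20 (limma adjusted p = 0.962), and its further probe set differed by -0.07.

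Dll1 encodes a Delta ligand that acts in somites and in progenitors of neurons and muscle. Its values were 7.81, 8.07, 7.99 and 7.38 in mutants, against 8.22, 7.66, 7.63 and 7.30 in controls. Each group spread more widely than the groups differed, with replicate 4 the lowest in both. The change of 0.11 ± 0.203 had the widest interval among the ligands, -0.34 to 0.57 (limma adjusted p = 0.856).

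Of the 3 receptor genes, 0 passed in limma's model, where 2.14% of all genes did. An unadjusted p under 0.05 was seen for 0 of them, against 13.5% of all genes. Notch1, the receptor of endothelium and epithelium among many tissues, read 9.63, 9.90, 9.24 and 9.46 in mutants, against 9.74, 9.81, 9.57 and 9.54 in controls. Mutant replicates held both the highest and the lowest value, and the change was -0.11 ± 0.134 (95% interval -0.41 to 0.19, limma adjusted p = 0.779). A second, dimmer probe set of Notch1 had the opposite sign (0.05).

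Notch2, a receptor of mesenchyme and many epithelia, read 10.17, 10.76, 10.21 and 10.18 in mutants, against 10.13, 10.27, 10.08 and 9.95 in controls. Mutant replicate 2 lay above all other arrays, and the other mutants fell within the control range. The change was 0.22 ± 0.138 (95% interval -0.09 to 0.53, limma adjusted p = 0.556), and a second probe set near the lower quartile of the arrays differed by 0.20.

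Notch3 is the receptor of the cells that surround blood vessels. Its brightest probe set, whose suffix marks probes shared by several transcripts, read 9.58, 9.84, 9.50 and 9.50 in mutants, against 9.77, 9.94, 9.71 and 9.74 in controls. Mutant replicates 1, 3 and 4 lay below every control, while mutant replicate 2 lay among them. The change was -0.19 ± 0.0952 (95% interval -0.40 to 0.03, limma adjusted p = 0.445), and its second probe set differed by -0.17.

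Hes1 encodes a repressor that Notch induces in many progenitor cells, and whose transcription also follows other signals. It read 9.50, 9.61, 9.25 and 9.41 in mutants, against 9.79, 9.28, 9.51 and 9.85 in controls. The groups overlapped, and control replicate 4, the lowest control for Hey1 and Hey2, was here the highest. Its change was -0.17 ± 0.134 (95% interval -0.47 to 0.13, limma adjusted p = 0.664).

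Hey2 read 6.91, 6.95, 6.58 and 6.53 in mutants, against 9.22, 9.73, 9.69 and 7.42 in controls. The groups did not overlap, which was so for 10.3% of all genes and for no other of the 10 genes. Control replicates 1, 2 and 3 lay near each other, and control replicate 4 lay 1.80 below the lowest of them and 0.47 above the highest mutant. The means were 6.74 ± 0.219 in mutants and 9.01 ± 1.09 in controls (SD, n = 4 each), and the SD of control replicates 1, 2 and 3 was 0.283. The change was -2.27 ± 0.443 (SE), and its 95% interval ran from -3.26 to -1.28 (limma adjusted p = 0.0349), and 6 of 18194 genes, Hey2 included, had a change this low. The mutant level is near the median of all values (6.32), and RMA compresses differences that reach into the dim range.

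The call on Hey2 depended on single arrays. Its direction could not turn when 1 array was left out, because its groups do not overlap. Without control replicate 4 the change was -2.80 (adjusted p = 2.8e-04). It did not pass without mutant replicate 1 (adjusted p = 0.0704), 2 (0.0584), 3 (0.0607) or 4 (0.116), nor without control replicate 1 (0.107), 2 (0.1285) or 3 (0.122), with changes between -2.34 and -2.03. With a mean-variance trend and a robust prior the adjusted p was 0.0527.

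Because Hey2 is the only call among the 10 genes, the sequence upstream of its start is shown. It comes from RefSeq (GRCm38.p6), chr10:30842781-30843033, minus strand, from 250 bases before the annotated start to 3 bases after it. Capitals mark the 8-letter motif CGTGGGAA, which RBPJ is known to bind, and its reverse complement TTCCCACG.

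Hey2: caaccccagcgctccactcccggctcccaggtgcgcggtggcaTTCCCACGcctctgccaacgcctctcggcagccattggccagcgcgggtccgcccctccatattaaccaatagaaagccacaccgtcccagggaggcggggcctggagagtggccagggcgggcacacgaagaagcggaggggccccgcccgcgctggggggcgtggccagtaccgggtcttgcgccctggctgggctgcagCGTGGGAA

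The window holds the motif in both orientations, the reverse complement at 207 to 200 bases before the start and the motif itself from 5 bases before the start to 3 after it. RefSeq windows of 300 bases were found for 7 of the 10 genes, in 8 windows (Hey2, Jag1, Jag2, Dll1, Notch1, Notch2 and Notch3), and only that of Hey2 held the motif on either strand. The related repressor genes Hes1, Hey1 and Heyl had no window. Among the 10 genes Hey2 could thus be compared with ligand and receptor genes alone, and whether its relatives hold the motif is not known here. Of all 32851 promoter windows, 241 (0.734%) held it, and 2 held both orientations, a count chosen after the Hey2 sequence was seen. The 6-letter core TGGGAA, which lies within the longer motif, was in 25.6% of windows on either strand, and among the 7 genes again in Hey2 alone. Among 43 further pathway genes with a window, Lfng held the 8-letter motif, and its change was 0.04. A match of letters does not show binding, and its absence from these windows says nothing about sites elsewhere.

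Hey1 read 9.28, 9.36, 8.71 and 9.14 in mutants, against 9.91, 10.19, 9.92 and 9.32 in controls. The 4 mutants lay below control replicates 1, 2 and 3, and control replicate 4 fell within the mutant range. The means were 9.12 ± 0.287 in mutants and 9.83 ± 0.368 in controls (SD, n = 4 each), and the change was -0.71 ± 0.194 (95% interval -1.15 to -0.28, limma adjusted p = 0.114). A change this low or lower was seen in 215 genes, or 1.18%. Hey1 passed without control replicate 4, at -0.88 ± 0.157 (limma adjusted p = 0.0218, where 1.96% of all genes passed as lower), and with estimated array weights, at -0.61 ± 0.144 (limma adjusted p = 0.0333, where 4.00% did). It also passed without control replicate 4 and mutant replicate 3 together, at -0.75 ± 0.0961 (limma adjusted p = 0.00718, where 3.28% did). In 2 of these settings the array that made the groups overlap was left out. With array weights, mutant replicate 3 had a weight of 0.108. Leaving out any other single array, Hey1 did not pass (limma adjusted p from 0.112 to 0.314).

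**Figure D2:**
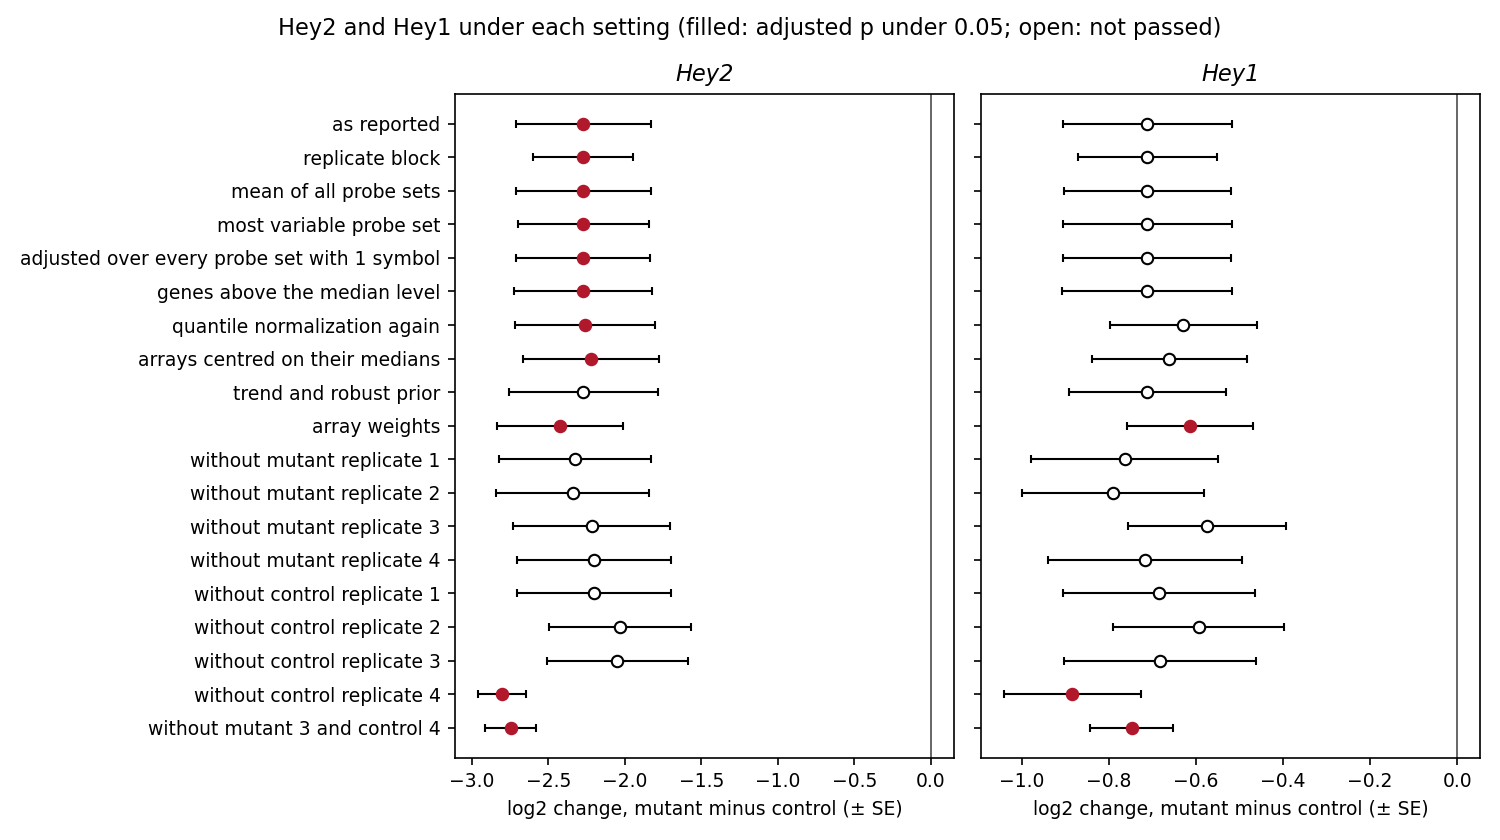
Log2 change, mutant minus control (horizontal axis, ± SE), of Hey2 on the left and Hey1 on the right under the reported setting and each alternative; filled points passed at an adjusted p under 0.05. Hey2 stays between -2.80 and -2.03 and Hey1 between -0.88 and -0.58, below 0 in each setting shown.

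Heyl, the third Hey gene, is known from vascular smooth muscle and is dim here. It read 6.83, 6.66, 6.77 and 6.60 in mutants, against 7.03, 6.75, 6.57 and 6.65 in controls. The groups overlapped throughout, and the change was -0.03 ± 0.106 (95% interval -0.27 to 0.20, limma adjusted p = 0.920). Its further probe sets differed by 0.02 and 0.08, and the sign of the brightest turned when arrays were centred on their medians (0.02).

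The change of Hey2 was set against that of each related repressor gene by the difference of their log2 values within each array, which does not compare levels between probe sets. Hey2 minus Hey1 was -2.37, -2.40, -2.14 and -2.61 in mutants, against -0.69, -0.45, -0.23 and -1.89 in controls. Every mutant thus lay below every control, with a difference of change of -1.56 ± 0.383 (SE). The difference of change was -2.24 ± 0.546 against Heyl and -2.11 ± 0.652 against Hes1, again with no overlap. Control replicate 4 lay close to the mutants here too. Against Heyl it was at 0.78, with the highest mutant at 0.29 and a control SD of 1.07. Against Hes1 it was at -2.43, with the highest mutant at -2.59 and a control SD of 1.30. Each of these 3 comparisons had a two-sided exact permutation p of 0.0286, the smallest that 70 relabelings can give (adjusted p = 0.0286 over the 3, by the same exact test). Hey2 was chosen because its change was known from these same arrays. The p-values thus restate that change and cannot test whether Hey2 differs from its relatives.

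Beyond these 10 genes, 6 lists covered the rest of the pathway, with 53 of 59 genes measured. The lists hold receptor proteases, sugar-modifying enzymes, nuclear cofactors and modifiers. In limma's model 0 of the 53 passed, against 2.14% of all genes. An unadjusted p under 0.05 was seen for 2 of the 53, against 13.5% of all genes. The median change of the 53 was -0.06, against -0.01 over all genes, and 47 had a 95% interval within 0.5 of 0 on either side. Some of them are dim, with gene means from 4.60 up, where the lower quartile of all values was 4.83. A narrow interval of a dim gene says little, because RMA compresses differences there. Of the 53, 2 (3.77%) had no overlap between groups, against 10.3% of all genes.

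**Figure D3:**
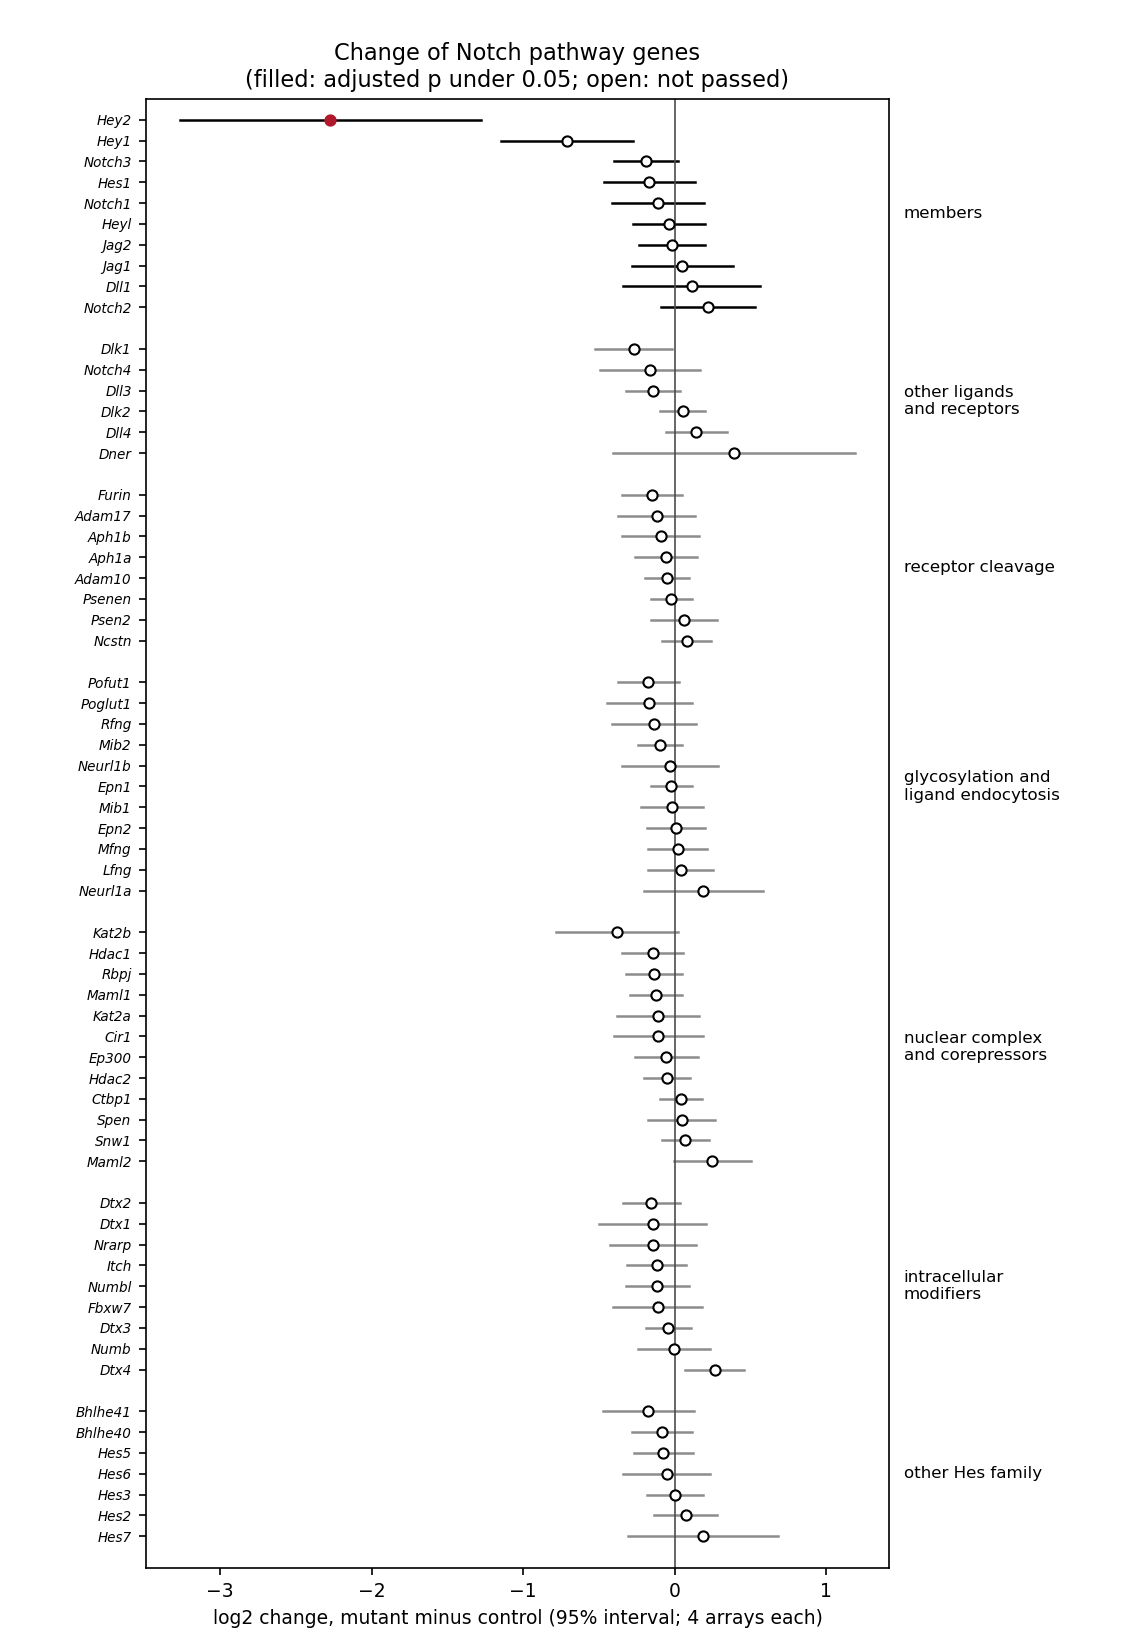
Log2 change, mutant minus control, with its 95% interval (horizontal axis) for the 10 genes at the top and 53 further Notch pathway genes grouped by role below; the filled point passed at an adjusted p under 0.05 and open points did not. Hey2 at -2.27 stands apart from the 53 further genes, whose changes lie between -0.38 and 0.39.

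Among 6 further ligand and receptor genes, the smallest p belonged to Dlk1, a non-canonical ligand gene (-0.27 ± 0.113, adjusted p = 0.339), and to Dll3, a Delta-like gene that inhibits signalling within the cell (-0.14 ± 0.0797, adjusted p = 0.495). The result for Dlk1 depended on the probe set. It was -0.49 with its most variable probe set (limma adjusted p = 0.0609) and passed over the mean of its probe sets (-0.38, limma adjusted p = 0.0347). Of 8 genes for receptor cleavage, Furin, which cuts the receptor during its transport, had -0.15 ± 0.0887 (adjusted p = 0.538), and Ncstn, a subunit of gamma-secretase, had 0.08 ± 0.073 (adjusted p = 0.704). Receptor glycosylation and ligand endocytosis were represented by 11 genes, with Pofut1, which adds fucose to Notch, at -0.17 ± 0.089 (adjusted p = 0.456) and Mib2, a ligase for ligands, at -0.10 ± 0.0654 (adjusted p = 0.596). With the brightest probe set of each gene these lists gave no call, where 2.14% of all genes passed. With so few genes, that is near the share of all genes.

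The nuclear complex and its corepressors were 12 genes. Its DNA-binding member Rbpj had a change of -0.13 ± 0.083 (adjusted p = 0.548). The coactivator gene Maml2 had 0.25 ± 0.113 (adjusted p = 0.379) and the acetyltransferase gene Kat2b -0.38 ± 0.179 (adjusted p = 0.403). Of 9 intracellular modifiers, Dtx4, a deltex ligase gene, read 9.03, 8.86, 8.84 and 8.91 in mutants, against 8.71, 8.75, 8.44 and 8.67 in controls. Its groups did not overlap, and its change was 0.26 ± 0.0864 (adjusted p = 0.196). Its relative Dtx2, also without overlap, had -0.15 ± 0.085 (adjusted p = 0.502). Nrarp, a feedback inhibitor that Notch induces, stood at -0.14 ± 0.126 (adjusted p = 0.695).

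Of 7 further genes of the Hes family and its relatives, 0 passed in limma's model, where 2.14% of all genes did. Their changes lay between -0.17 and 0.19. An unadjusted p under 0.05 was seen for 0 of the 7, against 13.5% of all genes. Bhlhe41 and Bhlhe40, repressors that also act in the circadian clock, had the smallest p (-0.17 ± 0.134, adjusted p = 0.651, and -0.08 ± 0.0882, adjusted p = 0.755). Hes5, a target of Notch in neural progenitors, had -0.07 ± 0.0877 (adjusted p = 0.772). Rbpj, Nrarp and Hes5 were named after their values were seen.

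The 3 genes whose values over the 8 arrays, each centred on its mean, lay nearest to those of Hey2 were Lepr, Slc26a7 and Tbx15, at root mean square distances of 0.236, 0.245 and 0.264 (log2), where Hey2 itself varied by 1.32 about its mean. Lepr, the leptin receptor gene, read 5.81, 6.00, 5.22 and 5.32 in mutants, against 8.30, 8.82, 8.81 and 6.91 in controls. Slc26a7, an anion transporter gene, read 5.35, 5.12, 4.48 and 5.28 in mutants, against 7.63, 8.30, 7.95 and 5.62 in controls. Tbx15, a T-box factor gene of craniofacial and limb mesenchyme, read 7.89, 7.76, 7.15 and 6.74 in mutants, against 9.80, 9.96, 9.92 and 7.89 in controls. Of these, Lepr passed (adjusted p = 0.0124), and Slc26a7 (0.0518) and Tbx15 (0.0588) did not. These genes were picked for their nearness to Hey2 over the same arrays. Their lower mutants, low control replicate 4 and small p-values thus follow from that choice and do not test a link with Hey2.

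**Figure D4:**
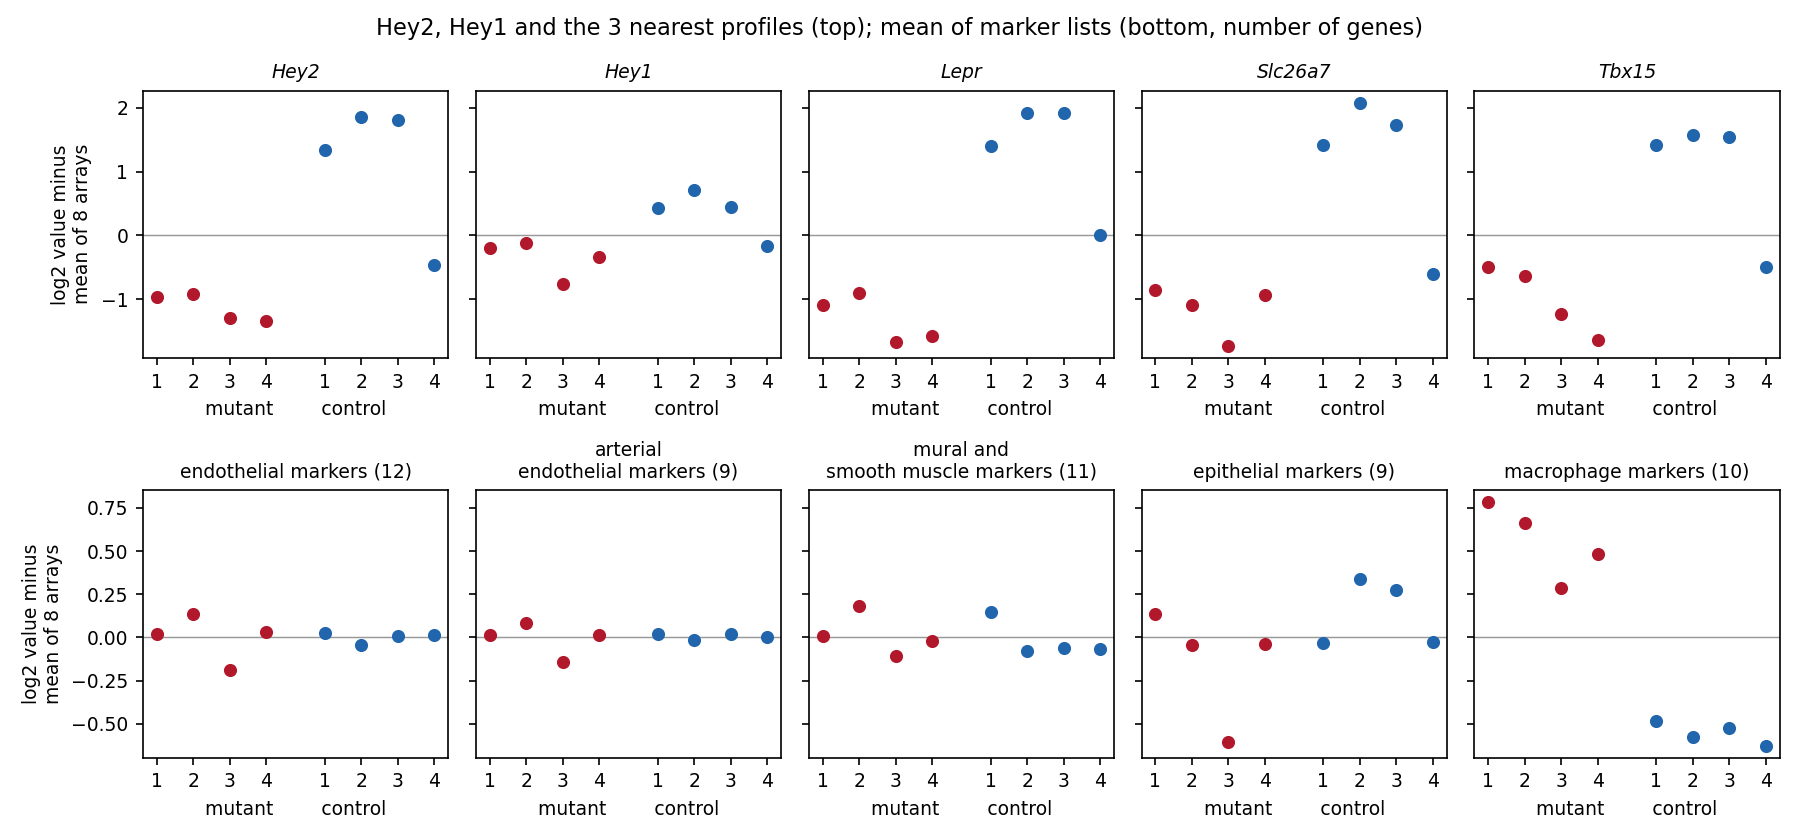
Log2 value minus the mean of the 8 arrays (vertical axes) for Hey2, Hey1 and the 3 nearest profiles in the top row and for the mean of 5 marker lists in the bottom row, with mutant replicates in red on the left and control replicates in blue on the right of each panel. Control replicate 4 is the lowest control for Hey2 and Hey1, and the macrophage list alone of the 5 lists shown separates the groups.

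Hey and Notch genes are also known from blood vessels, heart, epithelium and neural progenitors, and markers of these were measured in the same arrays. Over all genes 2.14% passed, so 0 calls in a short marker list is near that share. The mean of 12 endothelial markers was 8.37 to 8.69 in mutants and 8.51 to 8.58 in controls (log2), and 0 of 12 passed, Cldn5 (0.21) and Flt1 (-0.13) having the smallest p of these. The mean of 9 arterial markers was 7.66 to 7.88 in mutants and 7.78 to 7.82 in controls, and 0 passed. Efnb2, an ephrin gene of arteries and other tissues, was nearest to it, at 0.36 ± 0.0827 (adjusted p = 0.0607), with Acvrl1 at -0.28. In control replicate 4 the endothelial mean was 8.57 and the arterial mean 7.80, within the range of the other controls. The part of these lists in the values of Hey2 and Hey1 was not tested.

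For 11 mural and smooth muscle markers, which include Notch3, the mean was 8.06 to 8.35 in mutants and 8.09 to 8.31 in controls. The pericyte gene Rgs5 rose by 1.17 ± 0.235 (adjusted p = 0.0391), and the other 10 did not pass, where 2.14% of all genes did. Heart muscle markers averaged 5.58 to 6.12 in mutants and 5.48 to 6.29 in controls, with Myl7 higher (0.43, adjusted p = 0.0353) and 9 of 10 not passing. The 9 neuronal markers averaged 6.04 to 6.23 in mutants and 6.21 to 6.37 in controls, with 0 passing and Stmn2 (-0.95) and Dcx (-0.29) having the smallest p. Their part in the values of Hey2 and Hey1 was not tested.

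Epithelial markers averaged 9.21 to 9.95 in mutants and 9.79 to 10.16 in controls. Of these, 8 of 9 had a change below 0, against 9454 of 18194 over all genes. None passed, where 2.14% of all genes did, and Krt14 (-0.81) and Shh (-0.44) had the smallest p. The epithelial mean in control replicate 4 was 9.79, against 9.79, 10.16 and 10.09 in control replicates 1, 2 and 3. In control replicate 4 Krt14 read 9.28 and Shh 9.37, each below the other controls and within the mutant range, as for Hey1. The 9 skeletal myogenic markers averaged 7.77 to 8.88 in mutants and 7.69 to 9.28 in controls, with 0 passing and Myf5 (0.30) and Msc (0.32) having the smallest p. Of the 10 macrophage markers, 9 passed as higher (C1qa, C1qb, C1qc, Csf1r, Adgre1, Tyrobp, Aif1, Fcer1g and Cd68), against 152 of 18194 over all genes. The mean of the 10 was 8.05 to 8.54 in mutants and 7.13 to 7.28 in controls. In the mesenchyme list Dlx2 rose (0.56, adjusted p = 0.0253) and 13 of 14 did not pass. Of 4 markers of the posterior arches, all with a change above 0, Hoxb2 rose (0.83, adjusted p = 0.0104). With so few genes, 1 call in either list can be set only loosely against the 2.14% of all genes. The part of these further lists was likewise not tested.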

How the data were processed

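Values were used as the authors deposited them, as log2 expression per probe set, made with RMA per the submitters' processing notes (version not given in the sources used here). That method subtracts background, brings the arrays to a common distribution and combines the probes of each set. RNA was column-extracted from arch tissue and biotin-labelled by the standard Affymetrix procedure, per the labels' protocols. The number of arrays limits the precision. The deposited table held 45101 probe sets, of which 34958 had 1 gene symbol, 932 several and 9211 none, and the last 2 kinds were not named. Symbols matched RefSeq (GRCm38.p6) by Entrez identifier for 34754 probe sets.

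Mutants were compared with controls in limma 3.58.1 (R 4.3.3) by lmFit and eBayes without covariates, over 18194 genes with 1 probe set each, with Benjamini-Hochberg adjustment over all of them. Every adjusted p of a single gene comes from this fit, except those of Tgfbr1 and those given for an alternative setting. Changes of further probe sets and the adjusted p of Tgfbr1 come from a fit over all probe sets with 1 symbol. Pairs of genes were compared by exact permutation. On simulated arrays with 200 of 18194 genes changed, 51.6% of changes of 0.5 and 93.2% of changes of 1 (log2) were recovered, with 5.69% false calls. The simulated noise was normal and independent between genes, with all arrays alike. It lacks the differences between arrays seen in the real data, so these shares need not hold for them.

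Members, lists and tests were chosen with earlier results of these data known. Named were the members, the genes of each list past the threshold or else the 2 with the smallest p, Tgfbr1, and the 3 profiles nearest to a called member. List genes without a probe set of their own in the annotation were not analysed here. Alternatives changed the replicate block, probe set choice, filter, scaling, variance model, array weights and arrays used.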

Additional observations from a re-analysis of the deposited data

Results flagged for a closer look

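Of 60 groups of 4 arrays checked (members, their further probe sets and the named pathway genes, in each group), 4 held an array far from the others by Dixon's test at its 95% value, where chance gives about 1 in 20. Notch2 read 10.76 in mutant replicate 2, against 10.17 to 10.21 in the other mutants. The dimmest probe set of Heyl read 6.14 in mutant replicate 3, against 5.55 to 5.65 in the other mutants. Dtx2 read 9.46 in mutant replicate 3, against 9.74 to 9.78 in the other mutants. Kat2b read 8.28 in control replicate 4, against 8.63 to 8.67 in the other controls. Hey2 in control replicate 4 did not reach that limit, with a gap of 0.778 of the group's range.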

How the results depend on the processing

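Hey2 and Hey1 were lower in the mutants in all 18 alternatives, and Hey2 passed in 10 of them and Hey1 in 3. Both genes have 1 probe set each, so the alternatives of probe set choice reuse the same values for them. All alternatives share the same arrays and are not independent of each other. The number of the 10 genes that passed was 1 as reported, 0 with a trend and robust prior (Hey2 at -2.27, adjusted p = 0.0527), 2 with array weights, 2 without mutant replicate 3 and control replicate 4 together, and 0 to 2 when each array was left out in turn, with Hey2 then between -2.80 and -2.03. Leaving out an array leaves fewer samples. Among the further pathway genes 1 passed over the mean of all probe sets (Dlk1, -0.38) and 1 with array weights (Dtx4, 0.35), against 0 as reported and 0 without any 1 array. Changes near 0 turned sign: Heyl to 0.0231 over the mean of its probe sets, 0.0816 with the most variable probe set, 0.0164 with centred arrays and 0.0048 with array weights; Jag2 to 0.0644 with further quantile normalization and 0.0346 with centred arrays; Notch1 to 0.016 with array weights; Dll1 to -0.0835 without mutant replicate 3 and control replicate 4 together; the cause was not tested. Leaving out each array in turn, the changes ran from -0.0927 to 0.0577 for Heyl, -0.082 to 0.135 for Jag1, -0.108 to 0.0317 for Jag2 and -0.0233 to 0.284 for Dll1. The difference of change ran from -1.92 to -1.37 against Hey1, -2.73 to -1.96 against Heyl and -2.72 to -1.76 against Hes1. The exact permutation p was 0.0286 with any 1 control left out and 0.0571 with any 1 mutant left out. These p-values too follow the choice of Hey2 from the same arrays. With the replicate block the number of the 10 genes that passed was 1, with Hey2 at -2.27 (adjusted p = 0.0229), and the block changed no call on these genes. Same-numbered mutants and controls correlated at 0.033, 0.002, -0.124 and 0.406 in their deviations from the group means, and mutant replicate 4 alone correlated best with its own number, so the numbers were not taken as pairs. The median change of all genes moved to 0.01 and 0.04 under the 2 scalings.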
